A study of Mus musculus with 8 samples.

Results

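10 genes of bile acid handling in mouse liver were followed through 8 liver RNA-sequencing libraries. They were chosen by symbol, as the nuclear receptor FXR (*Nr1h4*), its target SHP (*Nr0b2*), 3 carriers of the blood-facing side (*Slc10a1*, *Slco1a1* and *Slco1b2*), 3 pumps of the bile-facing side (*Abcb11*, *Abcb4* and *Abcc2*) and 2 exporters back to blood (*Abcc3* and *Slc51b*). All 10 were found among the 38283 genes of the table. Of these, 9 passed the filter on low values (FPKM above 1 in at least 1 library) that left 11634 genes for testing, and *Slc51b* did not. FPKM scales sequenced fragments by transcript length and by library size, so that levels of different genes can be set side by side.

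The study compared male mice on a C57BL/6 background that were RORα f/f or RORα LKO. Both genotypes carried *Rora* alleles with loxP sites around exons 4 and 5, and RORα LKO mice also carried Alb-Cre, a Cre recombinase under the albumin promoter, which is active in hepatocytes. From 8 weeks of age the mice ate a control diet (CD) or a high-fat diet (HFD) for 10 weeks. Each of the 4 groups (RORα f/f on CD, RORα LKO on CD, RORα f/f on HFD and RORα LKO on HFD) had 4 mice, whose livers were pooled by 2 into 2 libraries of poly(A) RNA. Spread between libraries is therefore spread between pools, and mice within a pool cannot be told apart.

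Hepatocytes take bile acids up from portal blood through NTCP and the organic anion transporting polypeptides, and pump them into the bile canaliculus through BSEP, while MDR2 adds phosphatidylcholine and MRP2 adds conjugated organic anions. Bile acids inside the cell bind FXR, which pairs with RXR and raises transcription of SHP and of export pumps. SHP in turn represses genes of bile acid synthesis, and MRP3 and the OSTα-OSTβ pair give a way back to blood when bile flow fails.

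Upstream sequence of members that the results below turn on is shown first. A RefSeq promoter on GRCm38.p6 was matched for 9 of the 10 genes, *Abcc3* being the exception, and *Slc10a1* had 2 starts. The 250 bases before each start were searched on both strands for AGGTCA, a 6-base core element that FXR, RORα and other nuclear receptors can read. *Slc10a1* and *Slco1b2* are shown because they moved with diet, *Abcc2* because its genotype differences had opposite signs on the 2 diets, and *Abcb4* as a gene without the element. Capitals mark AGGTCA or its reverse complement, and each run is written 5′ to 3′ on the strand of the gene.
Slc10a1, chr12:80968080-80968329, minus strand, before the start inside the annotated gene: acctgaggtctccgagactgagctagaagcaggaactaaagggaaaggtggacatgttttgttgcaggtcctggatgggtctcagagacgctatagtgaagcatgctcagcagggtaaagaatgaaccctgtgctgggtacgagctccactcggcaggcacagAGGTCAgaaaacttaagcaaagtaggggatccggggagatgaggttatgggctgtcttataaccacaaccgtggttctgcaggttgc
Slco1b2, chr6:141629268-141629517, plus strand: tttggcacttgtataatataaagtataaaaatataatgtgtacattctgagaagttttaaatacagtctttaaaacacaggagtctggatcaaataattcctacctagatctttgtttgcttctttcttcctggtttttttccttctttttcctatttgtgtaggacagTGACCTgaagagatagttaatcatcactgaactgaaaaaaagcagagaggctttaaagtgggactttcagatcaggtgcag
Abcc2, chr19:43782058-43782307, plus strand: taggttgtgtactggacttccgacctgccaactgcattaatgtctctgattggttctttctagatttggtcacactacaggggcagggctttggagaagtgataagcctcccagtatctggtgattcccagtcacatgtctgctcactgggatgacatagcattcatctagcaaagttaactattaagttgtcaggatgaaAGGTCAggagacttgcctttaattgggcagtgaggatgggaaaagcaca
Abcb4, chr5:8893471-8893720, plus strand: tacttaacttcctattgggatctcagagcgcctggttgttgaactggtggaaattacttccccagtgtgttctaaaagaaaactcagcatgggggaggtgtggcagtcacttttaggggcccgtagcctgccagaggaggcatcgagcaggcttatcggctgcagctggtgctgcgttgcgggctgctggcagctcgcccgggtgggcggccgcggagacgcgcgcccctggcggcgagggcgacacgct

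The element was found in 7 of the 10 promoters of these genes, against 14.0% of 32851 RefSeq promoters of the same length. Of the 2 *Slc10a1* promoters, the one at the annotated end of the gene did not hold it. Its first base lay 87 bases before the inner start in *Slc10a1*, 81 in *Slco1b2*, 49 in *Abcc2* and 56 in *Abcb11*, the bile salt export pump. *Slco1a1* held it at 134 and 24 bases, *Nr1h4* at 214 and *Slc51b* at 203. The starts used for *Nr1h4*, *Abcb4*, *Abcc2* and *Slc51b* also lay inside the annotated gene. In *Nr1h4* and *Abcc2* the element itself lay inside the annotated gene, before an inner start. The related letters GGGTCA, present in 11.6% of promoters, were found in *Nr0b2* at 143 bases and in *Slc51b* at 187. The inverted repeat GGTCANTGACC, the arrangement FXR and RXR are known to bind, was searched as exact letters with N for any base. In that form it was in none of these 10 windows and in 0.0335% of all promoters. The direct repeat GGTCANNGGTCA was likewise in none of the 10, and in 0.164% of all promoters. Imperfect repeats were not counted, such as GGCCATTGACC in the *Abcb11* window, so a missing match does not mean that a window lacks such a repeat. These matches describe letters in a window and not binding.

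Before the members are described, 3 facts of the series bear on them. *Rora* FPKM was 8.85 and 8.59 in RORα f/f and 7.96 and 8.18 in RORα LKO libraries on CD, but 7.56 and 7.86 against 7.30 and 8.02 on HFD, where the genotypes overlapped. That value covers the whole gene and not exons 4 and 5 alone, so genotypes are given below as the libraries are labelled. The labels say WT and KO, read here as RORα f/f and RORα LKO, the genotypes that the study describes. *Alb*, which every hepatocyte uses, was listed at 0 in 4 libraries (1 RORα LKO on CD, 1 RORα f/f on HFD and both RORα LKO on HFD) and at 29902 to 30888 FPKM in the others, so a listed 0 need not mean an absent transcript. The other 8 matched hepatocyte markers, such as *Apoa1* (4407 to 6290 FPKM) and *Asgr1* (237 to 312 FPKM), were above 100 FPKM in every library. The libraries held 10587 to 10706 genes above 1 FPKM. Spearman's rho was 0.969 to 0.975 between libraries of a group and 0.958 to 0.974 between groups.

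The members spanned a wide range of levels. Mean FPKM over the 8 libraries was 611 for *Slc10a1* and 505 for *Slco1b2*, above 98.9% and 98.7% of tested genes. *Abcc2* followed at 120 FPKM, *Slco1a1* at 103 and *Abcb11* at 95.7. Below them were *Abcb4* at 77.0, *Abcc3* at 71.5, *Nr1h4* at 67.9 and *Nr0b2* at 23.2 FPKM. *Slc10a1* and *Slco1b2* did not overlap any other member in any library, whereas the ranges of *Abcc2*, *Slco1a1* and *Abcb11* overlapped each other, as did those of *Abcb4*, *Abcc3* and *Nr1h4*. In bulk liver RNA, fewer hepatocytes and less RNA per hepatocyte cannot be told apart.

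**Figure D1:**
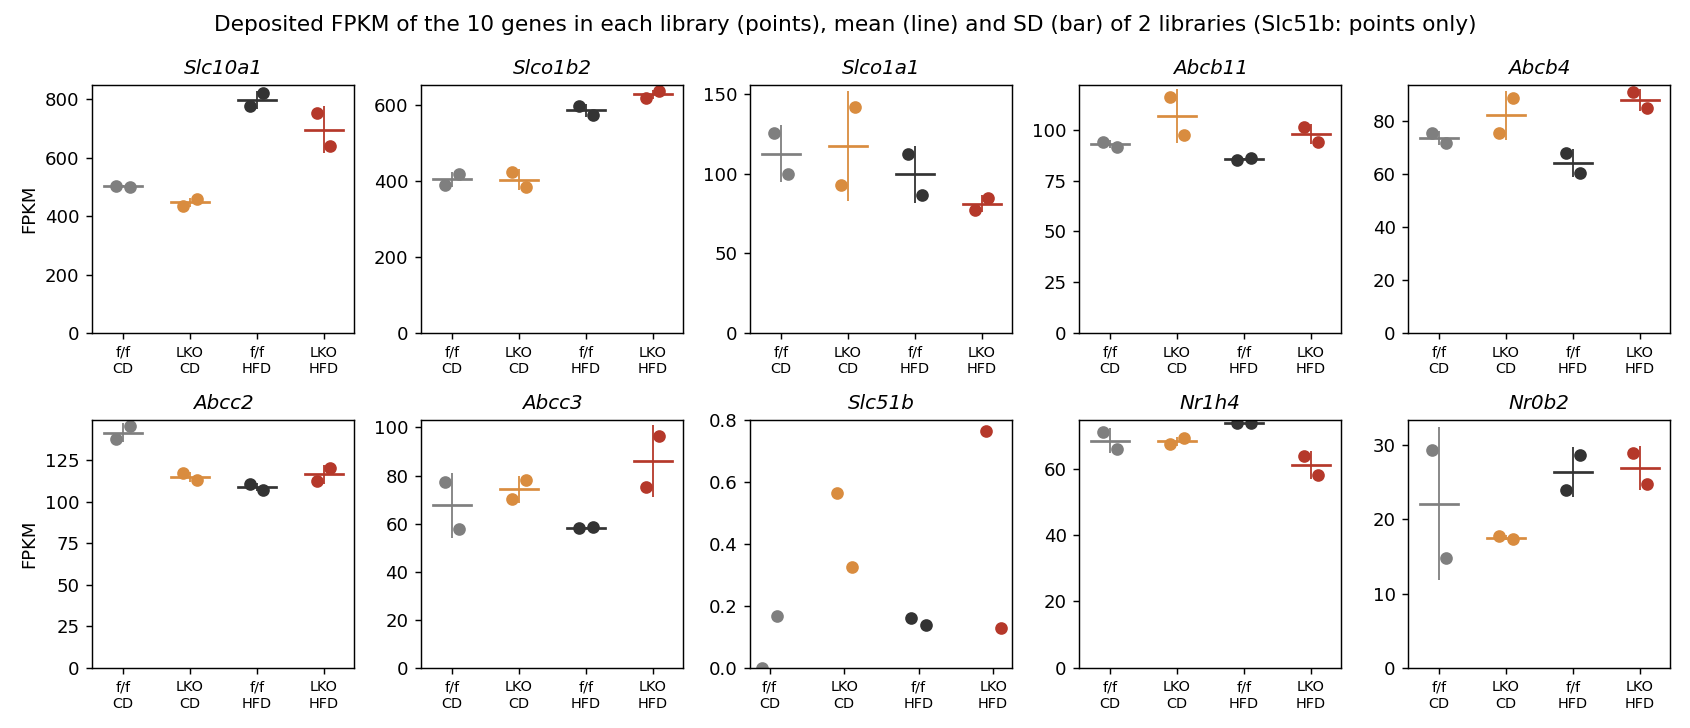
Deposited FPKM (vertical axes, each starting at 0) of the 10 genes in the 4 groups, with 1 point per library, a line for the mean and a bar for the SD of 2 libraries. *Slc10a1* and *Slco1b2* are higher in all 4 HFD libraries than in all 4 CD libraries, and *Slc51b*, shown as points only, stays below 1 FPKM.

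The uptake carriers *Slc10a1* and *Slco1b2* gave the largest differences among the members, and those differences went with diet. *Slc10a1* encodes NTCP, the sodium-dependent carrier that takes conjugated bile acids up from portal blood (ENSMUSG00000021135, chr12:80953183-80968705 on GRCm38, minus strand). Its FPKM was 504 and 501 in RORα f/f on CD, 435 and 458 in RORα LKO on CD, 777 and 820.0 in RORα f/f on HFD, and 753 and 639 in RORα LKO on HFD. Every HFD library was above every CD library. Group means were 502 ± 2.37, 447 ± 16.3, 799 ± 30.4 and 696 ± 81.0 in that order (SD, n = 2).

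*Slco1b2* encodes the OATP1B carrier of the mouse, which takes up unconjugated bile acids, bilirubin and many drugs without sodium (ENSMUSG00000030236, chr6:141629518-141686646, plus strand). It measured 390 and 419 FPKM in RORα f/f on CD, 423 and 385 in RORα LKO on CD, 598 and 574 in RORα f/f on HFD, and 619 and 636 in RORα LKO on HFD. The 4 HFD libraries again lay above the 4 CD libraries, and the genotypes overlapped on CD.

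*Slco1a1*, an organic anion carrier that is more abundant in male than in female mouse liver, did not share this pattern (ENSMUSG00000041698, chr6:141907282-141946962, minus strand). Its values were 125 and 99.9 FPKM in RORα f/f on CD, 93.0 and 142 in RORα LKO on CD, 112 and 86.8 in RORα f/f on HFD, and 77.3 and 84.9 in RORα LKO on HFD. Groups on CD overlapped widely, and the lowest pair was RORα LKO on HFD. *Slco1a1* lies in a cluster of related carrier genes on chromosome 6, and how reads shared by them were assigned was not tested.

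Differences were tested with limma on log2(FPKM + 1) after quantile normalization, with p-values adjusted over the 11634 tested genes within each of 7 comparisons. A gene is said to rise or fall only where the adjusted p was under 0.05. The comparisons share libraries with each other, so they are given side by side and are not independent. *Slc10a1* rose on HFD by 0.78 on the log2 scale (SE 0.11) in RORα f/f mice (adjusted p = 0.0379) and by 0.86 in RORα LKO mice (adjusted p = 0.0194). The rise averaged over genotypes was 0.82 (SE 0.078), with a 95% interval of 0.64 to 1.01 and an adjusted p of 0.00433. *Slco1b2* rose by 0.64 (SE 0.091, adjusted p = 0.0380) in RORα f/f and by 0.82 (adjusted p = 0.0182) in RORα LKO mice, and by 0.73 (interval 0.58 to 0.88, adjusted p = 0.00360) on average.

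The averaged rises of both carriers passed the threshold in all 8 other settings and without any 1 library, with adjusted p between 0.00842 and 0.0256 for *Slc10a1* and between 0.00913 and 0.0209 for *Slco1b2* without 1 library. Within RORα f/f mice, leaving out any of the 8 libraries ended both calls (adjusted p 0.0562 to 0.196 for *Slc10a1* and 0.0582 to 0.150 for *Slco1b2*), and other settings gave 0.0186 to 0.162 and 0.0207 to 0.166. Within RORα LKO mice, *Slc10a1* kept its call only without 1 or the other RORα f/f library on HFD (0.0454 to 0.0946 over the 8). In both genotypes the fit of the 4 libraries alone ended the calls, with adjusted p in RORα LKO of 0.125 for *Slc10a1* and 0.110 for *Slco1b2*, while the other 8 settings kept both RORα LKO calls. *Slco1b2* lost its RORα LKO call without RORα LKO replicate 2 on CD (0.0763) or RORα LKO replicate 1 (0.0789) or 2 (0.0937) on HFD. Over the settings the averaged difference lay between 0.65 and 0.83 for *Slc10a1* and between 0.58 and 0.73 for *Slco1b2*. The smallest values came when libraries were not normalized, against 0.82 and 0.73 in the main fit. Within RORα LKO mice the lowest values over the settings were 0.63 for *Slc10a1* and 0.64 for *Slco1b2*.

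Other cell markers and acute-phase genes were read beside these rises. The adjusted test for averaged diet called 9.89% of all tested genes, the background for each count here. Stellate cell markers summed to 46.2 to 71.7 FPKM on CD and 81.5 to 110.9 on HFD, with 3 of 10 passing. Of 9 endothelial markers 1 passed, near that background. Of 9 hepatocyte markers 4 passed, with *Hnf4a* (0.28), *Apob* (0.26) and *Ttr* (0.39) higher and *Tat* (-1.14) lower. The higher values depend on the normalization. Deposited FPKM of the diets overlapped for *Ttr* (3994 to 4541 on CD, 4034 to 4302 on HFD) and *Apob* (789 to 851 on CD, 819 to 862 on HFD). Without normalization *Hnf4a* did not pass (0.20, adjusted p = 0.119). Acute-phase genes summed to 12320 to 16340 FPKM on CD and 8436 to 11280 on HFD, with 7 of 17 passing. The part of these in the values of *Slc10a1* and *Slco1b2* was not tested.

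*Slco1a1* differed between diets by -0.14 in RORα f/f and by -0.41 in RORα LKO mice, with an averaged difference of -0.28 (interval -0.64 to 0.08, adjusted p = 0.289). Without RORα LKO replicate 1 on CD the averaged difference was -0.43 and that in RORα LKO mice -0.72, and without replicate 2 they were -0.13 and -0.11. Male-biased liver genes were lower on HFD beside it, with 7 of 12 passing the adjusted test for the averaged diet comparison (background 9.89%), all lower. Their summed FPKM was 13110 to 16540 on CD, 7094 to 10510 in RORα f/f on HFD and 4639 to 5314 in RORα LKO on HFD. Of 12 female-biased genes 4 were tested and 2 rose (same background). The part of these genes in the *Slco1a1* values was not tested.

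Genotype differences of *Slc10a1* and *Slco1b2* were small next to their diet differences, and that of *Slco1a1* on HFD was about as large as its averaged diet difference. *Slc10a1* differed by -0.18 on CD (interval -0.44 to 0.08) and by -0.10 on HFD (interval -0.37 to 0.16). On HFD its deposited values were lower in both RORα LKO libraries (753 and 639 against 777 and 820.0 FPKM), while after normalization the groups overlapped. *Slco1b2* differed by -0.01 on CD and 0.17 on HFD (interval -0.04 to 0.39), and *Slco1a1* by 0.01 and -0.26. None of the 3 passed an unadjusted p of 0.05 for genotype on either diet.

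**Figure D2:**
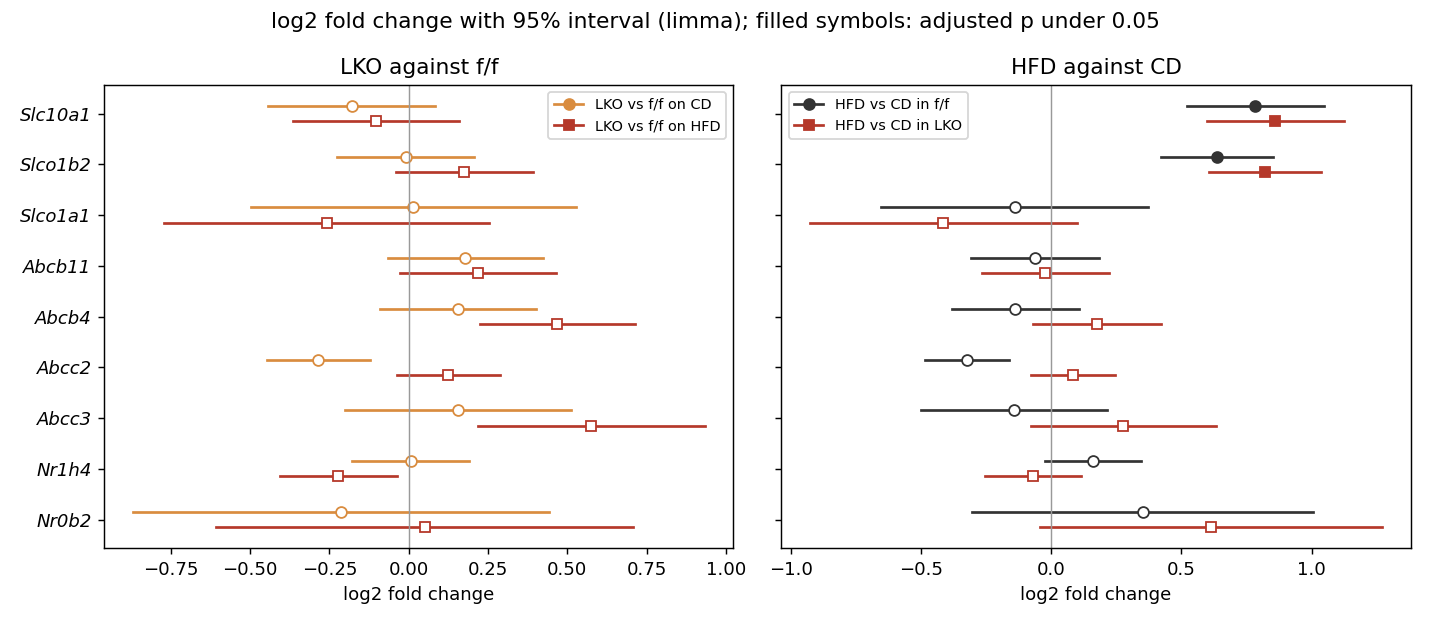
Log2 fold change (horizontal axes) with 95% intervals from limma for the 9 tested genes, for RORα LKO against RORα f/f on each diet at left and for HFD against CD in each genotype at right. Filled symbols, adjusted p under 0.05, are *Slc10a1* and *Slco1b2* on the right, and no symbol is filled on the left.

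Among the canalicular pumps the differences went with genotype or with both factors, and none passed the adjusted test. *Abcb4* encodes MDR2, the flippase that delivers phosphatidylcholine into bile (ENSMUSG00000042476, chr5:8893717-8959231, plus strand). FPKM was 75.4 and 71.7 in RORα f/f on CD, 75.6 and 88.7 in RORα LKO on CD, 68.1 and 60.5 in RORα f/f on HFD, and 90.8 and 85.0 in RORα LKO on HFD. RORα LKO libraries were above RORα f/f libraries on both diets, on CD by as little as 75.6 against 75.4.

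On HFD *Abcb4* was 87.9 ± 4.07 FPKM in RORα LKO against 64.3 ± 5.32 in RORα f/f libraries (SD, n = 2). The log2 difference was 0.47 (SE 0.10), with an interval of 0.22 to 0.71 and an adjusted p of 0.246. On CD the difference was 0.16 (interval -0.09 to 0.40), and averaged over diets 0.31 (adjusted p = 0.156). The difference between the diets, 0.31, did not pass.

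*Abcb11* encodes BSEP, the pump that sets the rate of bile salt secretion (ENSMUSG00000027048, chr2:69238282-69342616, minus strand). It measured 94.2 and 91.4 FPKM in RORα f/f on CD, 116 and 97.2 in RORα LKO on CD, 85.2 and 86.1 in RORα f/f on HFD, and 101 and 94.2 in RORα LKO on HFD. Within each diet both RORα LKO libraries exceeded both RORα f/f libraries. The averaged genotype difference was 0.20 (interval 0.03 to 0.37, adjusted p = 0.303). Without RORα LKO replicate 1 on CD, its highest library, the averaged difference was 0.13. In an exact permutation test within diets (two-sided, 36 arrangements), averaged genotype differences of *Abcb11* and *Abcb4* both gave p = 0.0556. For averaged diet differences of *Slc10a1* and *Slco1b2*, the exact permutation test within genotypes (two-sided, 36 arrangements) also gave p = 0.0556. That is the smallest value 36 arrangements allow, so the exact test cannot rank these differences. The share of all tested genes at that value was not determined. On a single diet, normalized libraries of the genotypes did not overlap for 42.2% (HFD) and 43% (CD) of all tested genes.

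*Abcc2*, the gene of MRP2, which exports bilirubin glucuronides and glutathione conjugates, had its highest values in a single group (ENSMUSG00000025194, chr19:43782192-43840740, plus strand). It measured 138 and 146 FPKM in RORα f/f on CD, 117 and 113 in RORα LKO on CD, 111 and 107 in RORα f/f on HFD, and 112 and 120.4 in RORα LKO on HFD. The other 3 groups lay between 107 and 120.4 FPKM, below both RORα f/f libraries on CD.

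On CD the log2 difference of *Abcc2*, RORα LKO less RORα f/f, was -0.28 (SE 0.068, interval -0.45 to -0.12, adjusted p = 0.223). On HFD the difference had the other sign, 0.12 (interval -0.04 to 0.29, adjusted p = 0.619). The difference between the diets was 0.41 (SE 0.096, interval 0.18 to 0.64, adjusted p = 0.517), rank 86 of 11634 genes by p. HFD against CD gave -0.32 in RORα f/f (interval -0.49 to -0.16, adjusted p = 0.0753) and 0.08 in RORα LKO mice.

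The exporters back to blood differed in level by orders of magnitude. *Abcc3* encodes MRP3, which moves glucuronides and bile acids into sinusoidal blood (ENSMUSG00000020865, chr11:94343295-94392997, minus strand). Its FPKM was 77.2 and 57.9 in RORα f/f on CD, 70.3 and 78.1 in RORα LKO on CD, 58.1 and 58.5 in RORα f/f on HFD, and 75.3 and 96.5 in RORα LKO on HFD. Genotypes overlapped on CD and separated on HFD, where RORα LKO libraries averaged 85.9 ± 15.0 against 58.3 ± 0.280 FPKM (SD, n = 2).

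On HFD the log2 difference of *Abcc3* was 0.58 (SE 0.15, interval 0.22 to 0.93), with an adjusted p of 0.318. Averaged over diets it was 0.37 (adjusted p = 0.212), and the difference between the diets, 0.42 (interval -0.08 to 0.92), did not pass. It was 0.23 without RORα f/f replicate 1 on CD, 0.26 without RORα LKO replicate 2 on HFD and 0.61 without RORα f/f replicate 2 on CD. Over the 8 libraries *Abcb4* and *Abcc3* had Pearson's r of 0.77, a description of points that share groups and libraries.

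Markers of other cells were read beside *Abcb4* and *Abcc3*. Kupffer cell and macrophage markers were above 0 for genotype on HFD in 10 of 10 genes (median log2 difference 0.39, 0 passing the adjusted test), against 49.1% of all tested genes. On CD 1 of 10 was above 0. Their summed FPKM on HFD was 151 in RORα LKO replicate 1 and 98.9 in replicate 2, and 83.3 to 101.5 in RORα f/f libraries. Cholangiocytes also express MRP3, and 5 of 10 of their markers were tested. Of these, 0 had an unadjusted p under 0.05 for genotype on HFD (background 9.58%) or on CD (background 12.3%). Their summed FPKM was 42.9 to 52.2 in RORα LKO and 46.0 to 55.3 in RORα f/f libraries on HFD. The part of Kupffer cells in the 2 differences was not tested.

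*Slc51b* encodes OSTβ, which carries bile acids only together with OSTα, the product of *Slc51a* (ENSMUSG00000053862, chr9:65412714-65422955, minus strand). It was listed at 0 and 0.167 FPKM in RORα f/f on CD, at 0.564 and 0.326 in RORα LKO on CD, at 0.162 and 0.140 in RORα f/f on HFD, and at 0.764 and 0.129 in RORα LKO on HFD. These levels were below the filter, so *Slc51b* was not tested. *Slc51a* was listed at 0 in all 8 libraries.

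FXR itself varied little. *Nr1h4* (ENSMUSG00000047638, chr10:89454234-89533585, minus strand) measured 71.1 and 65.9 FPKM in RORα f/f on CD, 67.3 and 69.2 in RORα LKO on CD, 73.9 and 73.6 in RORα f/f on HFD, and 64.0 and 58.0 in RORα LKO on HFD. Its highest library exceeded its lowest by 1.27 times, and genotypes overlapped on CD. On HFD both RORα LKO libraries were lower, with a log2 difference of -0.22 (SE 0.078, interval -0.41 to -0.04, adjusted p = 0.432). Without RORα LKO replicate 2 on HFD, its lowest library, the difference was -0.13. The genotype difference on HFD less that on CD was -0.23 (interval -0.49 to 0.03).

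*Nr0b2* encodes SHP, a receptor-like repressor without a DNA-binding domain (ENSMUSG00000037583, chr4:133553376-133556536, plus strand). Its FPKM was 29.4 and 14.8 in RORα f/f on CD, 17.8 and 17.3 in RORα LKO on CD, 24.0 and 28.7 in RORα f/f on HFD, and 29.0 and 24.8 in RORα LKO on HFD. The 2 RORα f/f libraries on CD held both its highest and its lowest value. Genotype differences were -0.21 on CD (interval -0.87 to 0.44) and 0.05 on HFD (interval -0.61 to 0.71). HFD against CD averaged 0.48 (interval 0.02 to 0.95, adjusted p = 0.165), and without RORα f/f replicate 1 on CD it was 0.71 with an adjusted p of 0.0303. Without RORα f/f replicate 2 on CD it was 0.25 with an adjusted p of 0.205.

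Read together, 0 of the 9 tested members passed the adjusted test for genotype on HFD, on CD, averaged over diets or for the difference between the diets, where the limma test called 0.043%, 0.0172%, 0.103% and 0.0344% of all tested genes. An unadjusted p under 0.05 was reached by 3 of 9 on HFD (*Abcb4* and *Abcc3* higher, *Nr1h4* lower, background 9.58%), 1 of 9 on CD (*Abcc2*, background 12.3%), 3 of 9 averaged over diets (*Abcb4*, *Abcc3* and *Abcb11*, background 13.5%) and 1 of 9 for the difference between the diets (*Abcc2*, background 8.35%). After normalization, libraries of the 2 genotypes did not overlap for 7 of 9 members on HFD, 5 of them higher in RORα LKO, against 42.2% of all tested genes. On CD they did not overlap for 4 of 9, against 43% of all tested genes. The median log2 difference of the members was 0.12 on HFD and 0.01 on CD, beside medians over all tested genes within 0.001 of 0.

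For diet, 2 of 9 members passed the adjusted test in RORα f/f (background 1.33%), in RORα LKO (background 3.02%) and averaged over genotypes (background 9.89%), each time *Slc10a1* and *Slco1b2*. Unadjusted p was under 0.05 for 3 of 9 in RORα f/f (background 19.2%), 2 of 9 in RORα LKO (background 21.3%) and 4 of 9 averaged (background 27.9%), the further genes being *Abcc2* and *Nr0b2*. Normalized libraries of the 2 diets did not overlap for 6 of 9 members in RORα f/f and 6 of 9 in RORα LKO, against 50.3% and 52.9% of all tested genes.

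Summing FPKM by role gave the balance between uptake and canalicular export in each library. The 3 uptake carriers summed to 1020 and 1020 in RORα f/f and 951 and 985 in RORα LKO libraries on CD, and to 1487 and 1480 in RORα f/f and 1450 and 1360 in RORα LKO libraries on HFD. Canalicular pumps summed to 307 and 309 in RORα f/f and 309 and 299 in RORα LKO libraries on CD, to 264 and 254 in RORα f/f on HFD, and to 305 and 299.6 in RORα LKO on HFD. For the pumps, the RORα f/f libraries on HFD lay below the range of the other 6 libraries.

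The uptake sum was 3.08 to 3.32 times the canalicular sum in the 4 CD libraries. On HFD the ratio was 5.64 and 5.83 in RORα f/f and 4.76 and 4.54 in RORα LKO libraries, and these groups did not overlap. Within the uptake sum, *Slco1a1* held 9.78% to 14.4% on CD and 5.33% to 7.54% on HFD. The sum that these shares divide by was itself larger on HFD. FPKM of *Slco1a1* overlapped between the diets (93.0 to 142 on CD, 77.3 to 112 on HFD), and its averaged diet difference did not pass. The ratio compares transcripts and not transport, and no test was run on it.

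**Figure D3:**
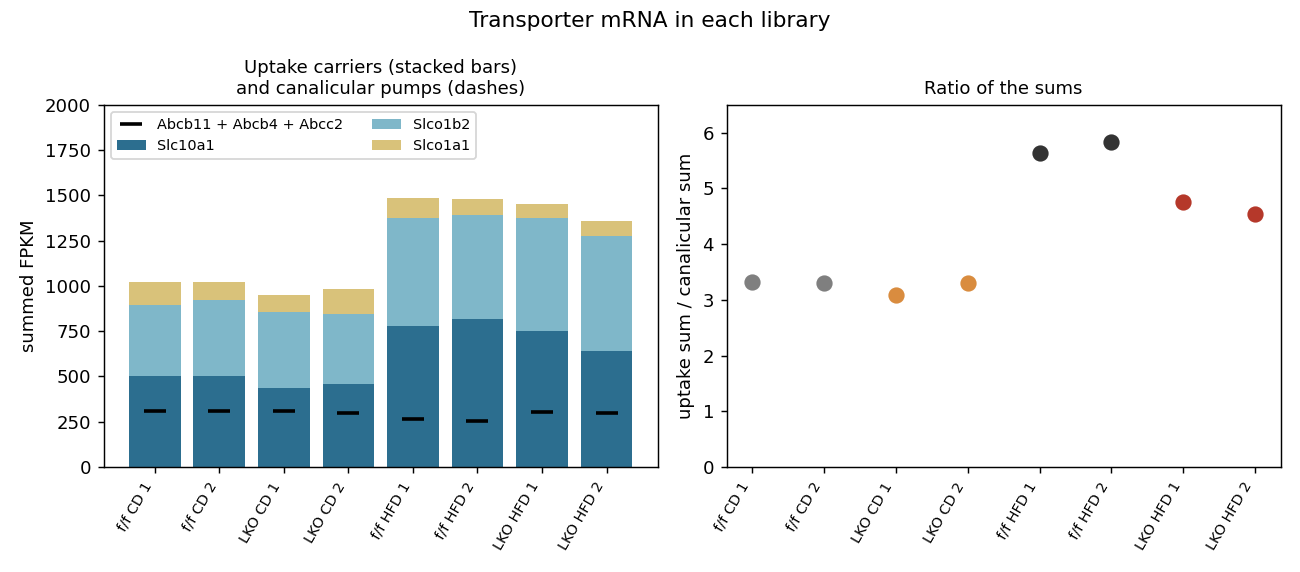
At left, summed FPKM in each of the 8 libraries for the uptake carriers (stacked bars) and the canalicular pumps (dashes), and at right the ratio of the sums. The ratio lies between 3.08 and 3.32 on CD, at 5.64 and 5.83 in RORα f/f on HFD, and at 4.76 and 4.54 in RORα LKO on HFD.

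The genes whose normalized values followed *Slc10a1* most closely over the 8 libraries were *Iqgap2* (Pearson's r = 0.99), *Bhmt2* (0.98), *Faf1* (0.97), *Tprgl* (0.97) and *Rdh9* (0.97). Among the members *Slco1b2* was nearest, with r = 0.92. The 8 points share groups and libraries, and the values are descriptions.

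Genes around FXR were counted as whole lists. Of 12 partners and regulators of FXR, 6 passed the adjusted test for diet averaged over genotypes, against 9.89% of all tested genes. Higher on HFD were *Rxra*, the partner of FXR on DNA (0.27), *Hnf4a* (0.28), *Nr1i3*, the receptor CAR (0.58), and *Fgfr4* (0.21) and *Klb* (0.24), which together form the hepatic receptor for FGF15. Without normalization 2 of the 12 passed, and *Hnf4a* (0.20, adjusted p = 0.119), *Nr1i3* (0.50, 0.0540), *Fgfr4* (0.18, 0.0787) and *Klb* (0.21, 0.0642) did not. For genotype 0 of the 12 passed on either diet, and *Fgfr4* and *Klb* had differences of 0.28 and 0.13 on CD and -0.10 and -0.09 on HFD. An unadjusted p under 0.05 for genotype was reached by 0 of 12 on HFD (background 9.58%) and 4 of 12 on CD (background 12.3%), among them *Fgfr4* and the coactivator *Ppargc1a* (-0.55).

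Of the other transporters, 14 of 16 were tested and 3 passed for averaged diet (background 9.89%). *Slco2a1*, a prostaglandin carrier, fell by 0.67, *Slc10a5*, an orphan relative of NTCP, fell by 0.33, and *Slc27a2*, an acyl-CoA synthetase and fatty acid carrier, rose by 0.45. The *Slc27a2* call rests on the normalization, since without it the difference was 0.22 (adjusted p = 0.224) and the diets overlapped, at 686 to 906 FPKM on CD and 823 to 1029 on HFD. For genotype 0 of 14 passed on either diet. *Abcc6* had the only unadjusted p under 0.05 (0.44 on CD), 1 of 14 on CD (background 12.3%) and 0 of 14 on HFD (background 9.58%). An unadjusted p under 0.05 for averaged diet was reached by 6 of 14 (background 27.9%). Those that did not pass the adjusted test were *Abcg2*, *Slc22a7* and *Slc10a2*, lower on HFD at -0.21, -0.42 and -0.39.

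Bile acid synthesis and conjugation genes were all tested, and 6 of 14 passed for averaged diet (background 9.89%). *Acox2* (0.54), *Hsd3b7* (0.45), *Cyp39a1* (0.91) and *Hsd17b4* (0.23) rose, while *Cyp7b1*, the oxysterol hydroxylase of the acidic pathway, fell by 1.37 and *Cyp2c70*, which makes muricholic acids, fell by 0.70. Without normalization *Hsd17b4* did not pass (0.18, adjusted p = 0.107). *Cyp7b1* is also among the male-biased genes above. *Cyp7a1*, the rate-limiting enzyme of the classic pathway, measured 66.3 and 100.4 FPKM in RORα f/f and 30.3 and 37.8 in RORα LKO on CD, and 70.7 and 77.6 against 46.2 and 31.1 on HFD. RORα LKO libraries were lower on both diets without overlap, with log2 differences of -1.23 on CD (adjusted p = 0.196), -0.94 on HFD (adjusted p = 0.328) and -1.09 averaged (adjusted p = 0.0991), so the difference did not pass. *Cyp8b1*, which sets the share of cholic acid, differed by -0.17 on CD and 0.61 on HFD, and *Baat*, which conjugates bile acids, by -0.14 and -0.02. For averaged diet an unadjusted p under 0.05 was reached by 9 of 14 (background 27.9%), 6 higher and 3 lower on HFD. Among them were *Akr1d1* (0.29), *Scp2* (0.26) and *Cyp8b1* (-0.49), which did not pass the adjusted test. Without normalization *Scp2* differed by 0.03. For genotype 0 of 14 passed on either diet, with an unadjusted p under 0.05 for 6 on HFD (4 higher and 2 lower in RORα LKO, background 9.58%) and 2 on CD (1 higher and 1 lower, background 12.3%).

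Of 9 other genes that FXR is known to induce, 8 were tested and 4 passed for averaged diet (background 9.89%). *Cyp3a11*, a drug and bile acid hydroxylase, fell by 1.53, from 1033 to 1234 FPKM over the CD libraries to 214 and 298 in RORα f/f and 522 and 431 in RORα LKO on HFD. *Sdc1* fell by 0.25, *Fetub* fell by 0.31 and *Apoc2* rose by 0.39, though without normalization it did not pass (0.27, adjusted p = 0.1004). For genotype 0 of 8 passed on either diet. An unadjusted p under 0.05 was reached by 3 of 8 on CD (background 12.3%) and 3 of 8 on HFD (background 9.58%). These were *Pltp* (1.10 on CD, 0.95 on HFD) and *Fgf21* (1.05 and 0.73) on both diets, *Cyp3a11* (0.96) on HFD and *Sdc1* (0.25) on CD. These directions were mixed within the list, and the list was not tested as a set.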

How the data were processed

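Poly(A) RNA from 8 pools of mouse liver was sequenced as paired ends. The deposited values are FPKM per gene, which the authors made from trimmed reads, and the submitters' processing notes name cutadapt 1.0, TopHat2 2.0.7, Cufflinks and GRCm38. FPKM keeps no read counts, so depth per library and counting intervals are unknown here and count tests were not run. Every column of the table was used. Symbols were matched by Ensembl identifier for 36341 of 38283 genes, and coordinates are from GENCODE M21 on GRCm38. Groups came from the sample labels, with WT read as RORα f/f and KO as RORα LKO.

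Genes with FPKM above 1 in at least 1 of 8 libraries were kept (11634), a pseudocount of 1 was added, and log2 values were quantile normalized, so fold changes of low genes are understated. 1 limma fit (limma 3.58.1, R 4.3.3) with a mean for each of 4 groups and a mean-variance trend gave 7 comparisons, each adjusted by Benjamini-Hochberg. It had 4 residual degrees of freedom and a prior of 2.8. limma took the place of the study's permutation of libraries because 2 libraries a group leave few regroupings. On simulated data for RORα LKO against RORα f/f on HFD, with 200 of 11634 genes changed, the fit recovered 97% of genes changed by 2 and 83% of those changed by 1 on the log2 scale, with 5 false calls, and made 0 calls with no change. The simulation drew independent normal values with the SD that this same fit estimated, so real pools may give lower shares. No change smaller than 1 was simulated. The shares therefore do not cover the members' genotype differences, the largest being 0.58 (*Abcc3* on HFD). P-values measure spread between pools of 2 livers.

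The members and gene lists were chosen with earlier results of these data known. All 10 members are named, and list genes are named where an unadjusted limma p was under 0.05 in any comparison, with *Cyp7a1*, *Cyp8b1*, *Baat*, *Slc51a*, *Rxra*, *Fgfr4* and *Klb* always. Libraries with the same number hold different mice, and Pearson's r of their deviations was 0.0644 to 0.145 over 4 pairs of groups, not above 0.1 in each, so numbers were not used to pair libraries. Alternatives were no normalization, median centring, a pseudocount of 0.1, 2 other filters, the replicate block, no trend, fits of 4 libraries, each library left out and, chosen after seeing the data, genes listed at 0 left out, and the list genes under other scalings. Promoters are RefSeq's on GRCm38.p6. Figures were drawn with matplotlib 3.10.9. A list gene that the naming rule selects is not reported here.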

Additional observations from a re-analysis of the deposited data

Results flagged for a closer look

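Of 55 genes of the lists scanned, 3 had libraries that separated the genotypes in opposite directions on the 2 diets, against 6.7% of all tested genes (780 of 11634). The share among the scanned genes was not above that background, so the 3 genes are given as a description. None passed the adjusted limma test of the difference between the diets. *Abcc2* had a genotype difference 0.41 higher on HFD than on CD on the log2 scale (0.12 against -0.28, adjusted p = 0.517). *Fgfr4* had a difference between the diets of -0.38 (-0.10 on HFD against 0.28 on CD, adjusted p = 0.558). *Klb* had a difference between the diets of -0.21 (-0.09 on HFD against 0.13 on CD, adjusted p = 0.661). Groups of 2 libraries allow no check for a single outlying library.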

How the results depend on the processing

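Of the members' differences, 0 called values changed sign, while some that did not pass took either sign without 1 library, such as genotype on HFD for *Slc10a1* (-0.25 to 0.04) and on CD for *Nr0b2* (-0.68 to 0.25) and *Slco1a1* (-0.29 to 0.32). For genes with an adjusted p under 0.05, genotype on HFD gave 5 in the main analysis and 24 with FPKM above 0 in any library, and 4 to 21 without 1 library. Genotype on CD gave 2, against 1 with a pseudocount of 0.1, 7 with FPKM above 1 in all 8 libraries, 10 with FPKM above 0, 4 without the trend, 9 without genes listed at 0, and 2 to 19 without 1 library. The difference between the diets gave 4, against 2, 0 and 19 with the same pseudocount and filters, 0 without genes listed at 0, and 10 to 21 without 1 library. HFD against CD in RORα f/f gave 155, against 323 and 46 with those filters, 42 without the trend, 297 without genes listed at 0, and 14 to 49 without 1 library. In RORα LKO it gave 351, against 570, 135, 229 and 568 under the same 4 settings, and 21 to 154 without 1 library. Genotype averaged over diets gave 12, against 7 without normalization, 50 and 28 with the filters, 38 without genes listed at 0, and 13 to 30 without 1 library. Diet averaged over genotypes gave 1151, against 704 with FPKM above 0 and 374 to 816 without 1 library. The count of members with an unadjusted p under 0.05 was 1 for genotype on CD and 2 in the fit of the 4 libraries alone (1 to 2 without 1 library), 1 for the difference between the diets and 2 without normalization (1 to 3), 3 for averaged genotype and 5 without normalization (2 to 4), and 4 for averaged diet and 2 without the trend (2 to 4). With the replicate block, HFD against CD called 34 genes in RORα f/f and 223 in RORα LKO mice, and within RORα f/f the adjusted p of *Slc10a1* was 0.0640 and of *Slco1b2* 0.0673, while no other adjusted call on a member changed. The cause of these changes was not tested. Leaving out a library leaves a group of 1, which is assumed to vary like the others.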
